A study of Mus musculus with 4 samples.

Results

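The mitochondrially encoded RNAs described here are 10 transcripts of the mouse mitochondrial genome. They comprise the 12S and 16S ribosomal RNAs (mt-Rnr1 and mt-Rnr2), the methionine transfer RNA (mt-Tm) and 7 messenger RNAs (mt-Nd1, mt-Nd2, mt-Nd4, mt-Nd5, mt-Cytb, mt-Co1 and mt-Atp6). Their contacts with themselves, with each other and with nuclear RNAs were read from a table of chimeric read counts, by taking each pair of RNAs with 1 of the 10 names on either side. These were 266 of 56636 listed pairs. Of the 266 pairs, 8 joined an RNA to itself, 12 joined 2 different mitochondrial RNAs and 246 joined a mitochondrial to a nuclear RNA. All 10 names were found among the 13318 RNAs of the table, and 5 further mitochondrial names (mt-Nd4l, mt-Nd6, mt-Co2, mt-Tl1 and mt-Tv) were present.

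The counts came from RIC-seq, in which cells are fixed with formaldehyde, RNA is cut by a nuclease, neighbouring RNA ends are ligated in place and the joined fragments are sequenced. There were 2 libraries labelled differentiation and 2 control libraries labelled WT, all of mouse spermatogonial stem cells, the self-renewing cells from which sperm arise. Neither the inducer and length of differentiation nor the strain or age of the animals is given in the sources used here. Nothing in the labels places the libraries in separate cultures, so the p-values reflect only library-to-library spread, possibly technical.

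Mitochondrial genes are transcribed from both strands of a small circular genome into long precursors. Transfer RNAs punctuate these precursors, and cutting them out releases most of the messenger and ribosomal RNAs. The messengers encode core subunits of the respiratory chain and of ATP synthase, and the ribosomal RNAs build the ribosomes that translate them inside the organelle. Spermatogonial stem cells are known to lean on glycolysis, and oxidative phosphorylation gains weight as germ cells differentiate.

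Libraries held 793129 and 1155923 counts with differentiation, against 1209031 and 1400011 counts in the controls. Every listed pair had at least 1 count in all 4 libraries, so these totals are those of shared pairs and not sequencing depth. Summed contact totals of 6 listed undifferentiated spermatogonia markers were 231 and 210 CPM with differentiation, against 742 and 870 CPM in the controls. CPM here are counts scaled to library size by edgeR. Shisa6 alone stood at 141 and 105 CPM with differentiation, against 544 and 638 CPM in the controls. Of 5 tested markers 2 fell (Shisa6 and Gfra1). Beside these and the calls that follow, 5.44% of all 10993 tested contact totals rose and 6.75% fell. Of 5 tested meiotic markers 3 rose (Sycp1, Dmc1 and Smc1b), with sums of 480 and 575 CPM with differentiation, against 143 and 138 CPM in the controls. Of 5 tested germ cell markers 2 rose, Tdrd9 and Mov10l1, with sums of 4208 and 3815 CPM with differentiation, against 3808 and 4144 CPM in the controls. Most of these sums was Tex14, at 3971 and 3511 CPM with differentiation, against 3716 and 4064 CPM in the controls. Tex14 encloses U3 RNA genes, and how reads over nested genes were assigned is not known. The sums thus say little of the other markers. Of 5 tested Sertoli cell markers 4 fell, with sums of 552 and 507 CPM with differentiation, against 846 and 977 CPM in the controls. Of 5 tested fibroblast markers 4 fell, with sums of 797 and 942 CPM with differentiation, against 1326 and 1258 CPM in the controls. Of 4 Leydig and peritubular markers and 1 tested immune marker, edgeR called 0, and DESeq2 also 0; at an unadjusted p under 0.05 edgeR called 1, a Leydig or peritubular marker that was lower. The part of other cell types in the mitochondrial results was not tested. Where a bulk value moves, a change in the number of cells of a type and a change in RNA per cell cannot be told apart.

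Pairs with a mitochondrial RNA of the 10 made up 0.269% and 0.324% of the counts of the differentiation libraries, against 0.208% and 0.204% in the controls. Wilson 95% intervals, which cover counting error only, ran from 0.258% to 0.334% over the differentiation libraries and from 0.196% to 0.216% over the controls. Contacts within a mitochondrial RNA took 0.109% and 0.132% of the counts with differentiation, against 0.0652% and 0.0549% in the controls. Contacts between 2 mitochondrial RNAs took 0.00744% and 0.00995% with differentiation, against 0.00678% and 0.00657% in the controls. Contacts with nuclear RNAs took 0.153% and 0.182% with differentiation, against 0.136% and 0.142% in the controls. Both differentiation libraries were thus above both controls in each class, and within-RNA contacts had the largest ratio. For pairs of 2 mitochondrial RNAs, the interval of differentiation 1 (0.00577% to 0.00959%) overlapped those of control 1 (0.00546% to 0.00842%) and control 2 (0.00536% to 0.00806%). For pairs with nuclear RNAs, that of differentiation 1 (0.144% to 0.162%) overlapped that of control 2 (0.136% to 0.149%). Without pairs of the nuclear hub RNAs Gm42418 and Gm26917, the shares with nuclear RNAs overlapped, at 0.130% and 0.1503% with differentiation, against 0.127% and 0.138% in the controls. The shares were not tested, since the smallest two-sided p of an exact permutation of 2 libraries against 2 is 0.333.

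Of the 266 pairs 99 had enough counts for a test, and of these 9 rose and 3 fell, against 2.85% higher and 2.4% lower among all tested pairs of the table. Contacts within mitochondrial messenger RNAs made up most of those that rose. Of 8 within-RNA pairs, all of which could be tested, 6 rose and 0 fell at an adjusted p under 0.05, and the median log2 change was 1.12. Among all 4439 tested within-RNA pairs, 12.3% rose and 3.33% fell, with a median of 0.44. Levels below are counts scaled to CPM by the normalization of edgeR's quasi-likelihood test, changes are log2 of differentiation over control, SE is the standard error of the fit and adjusted p-values are Benjamini-Hochberg values over all 31688 tested pairs. For the 0 pairs that fell, edgeR also found 0 at an unadjusted p under 0.05, and DESeq2 found 0.

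Among the messengers, mt-Nd5, mt-Nd1 and mt-Nd2 of complex I had the largest estimates, complex I being the entry point of electrons from NADH into the respiratory chain. Contacts within mt-Nd5 (chromosome MT, 11742 to 13565, GRCm38.p6) stood at 199 and 326 CPM with differentiation, against 92.7 and 81.8 CPM in the controls. That was a 3.01-fold difference in the means (log2 change 1.60, SE 0.27, adjusted p = 0.00176), and the groups did not overlap. Contacts within mt-Nd1 (2751 to 3707) stood at 144 and 215 CPM with differentiation, against 77.5 and 60.3 CPM in the controls (1.39, SE 0.28, adjusted p = 0.00642). Contacts within mt-Nd2 (3914 to 4951) were almost equal in both differentiation libraries, at 200.4 and 203 CPM, against 115 and 66.0 CPM in the controls (1.16, SE 0.27, adjusted p = 0.0183). Control 2 was lower than control 1 for these 3 RNAs, and each control value lay below each differentiation value.

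The fourth complex I messenger, mt-Nd4 (10167 to 11544), had few contacts within itself. It stood at 22.7 and 13.4 CPM with differentiation, against 15.2 and 8.61 CPM in the controls, where the groups overlapped (0.58, SE 0.53, adjusted p = 0.598). Per kilobase its within-RNA contacts averaged 13.1 CPM with differentiation, against 8.63 CPM in the controls, whereas mt-Nd2 averaged 194 CPM per kilobase with differentiation, against 87.0 CPM per kilobase in the controls. Low within-RNA contact of mt-Nd4 was thus seen in both groups. Per kilobase, within-RNA contacts were highest for mt-Co1, at 335 CPM with differentiation, against 177 CPM in the controls, and those of mt-Rnr1 and mt-Rnr2 were 10.97 and 11.1 CPM with differentiation, against 7.53 and 2.12 CPM in the controls.

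The messengers of complexes III and IV moved in the same direction as those of complex I. Contacts within mt-Co1 (5328 to 6872), which encodes the catalytic subunit of cytochrome c oxidase, stood at 496 and 539 CPM with differentiation, against 299 and 248 CPM in the controls. The change was smaller than that of mt-Nd5 (0.92, SE 0.20, adjusted p = 0.0128); the difference between the RNAs was not tested. Contacts within mt-Cytb (14145 to 15288), the cytochrome b subunit of complex III, stood at 139 and 136 CPM with differentiation, against 58.2 and 72.5 CPM in the controls (1.07, SE 0.26, adjusted p = 0.0242). The call for mt-Co1 was lost in 4 of 12 alternatives, namely without control 1 (adjusted p = 0.0616) or control 2 (0.266), without a filter (0.0656) and with DESeq2 (0.0627). That for mt-Cytb was lost in 5, namely without control 1 (0.214) or control 2 (0.112), with DESeq2 (0.0906), under column totals (0.0513) and without pairs of Gm42418 and Gm26917 (0.0505). The calls for mt-Nd1 (0.0950) and mt-Nd2 (0.323) were lost without control 2. The call for mt-Nd5 held under all 12 alternatives tried, with adjusted p from 5.25e-12 to 0.0130.

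**Figure D1:**
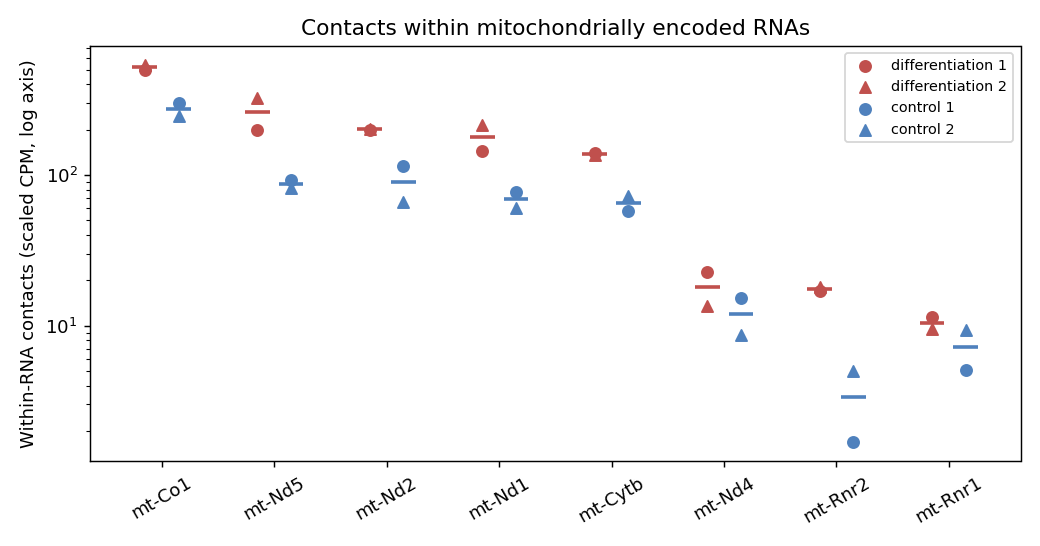
Contacts within each mitochondrially encoded RNA, in scaled CPM on a log axis; red marks are the 2 differentiation libraries, blue marks the 2 control libraries, and bars are group means. The groups do not overlap for 7 of the 8 RNAs, the exception being mt-Nd4, where 1 differentiation library lies below 1 control.

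The ribosomal RNAs had few contacts within themselves. Those within mt-Rnr2 (1094 to 2675), the 16S RNA of the large mitochondrial ribosomal subunit, numbered 12 and 19 counts with differentiation, against 2 and 7 counts in the controls, or 17.1 and 18.2 CPM against 1.69 and 5.02 CPM. This passed the threshold (2.32, SE 0.65, adjusted p = 0.0450) on few counts, and the ratio of summed scaled counts was 5.09 with an exact 95% counting interval of 2.36 to 12.1. It passed in only 5 of 12 alternatives, and without control 1 (adjusted p = 0.237), control 2 (0.0571) or differentiation 2 (0.0729) it did not. Contacts within mt-Rnr1 (70 to 1024), the 12S RNA of the small subunit, stood at 11.4 and 9.58 CPM with differentiation, against 5.06 and 9.33 CPM in the controls (0.51, SE 0.61, adjusted p = 0.718). The table listed no within-RNA pair for mt-Tm or mt-Atp6.

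Over the 8 RNAs, the groups did not overlap in 7, always with differentiation higher, against 46% of all tested within-RNA pairs. Nuclear genes of the same respiratory complexes gave a comparison. Of their 10 within-RNA pairs, all tested, 3 rose and 0 fell, with a median log2 change of 0.80. The difference between mitochondrial and nuclear subunits was not tested.

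Summed over all partners, fewer of the 10 RNAs moved. A contact total adds all pairs of an RNA, with its within-RNA pair counted once. Of 9 totals with enough counts, 3 rose and 0 fell, against 5.44% higher and 6.75% lower among 10993 tested RNAs. At an unadjusted p under 0.05 edgeR found 5 higher and 0 lower, and DESeq2 found 3 higher and 0 lower after adjustment. The groups did not overlap for 7 totals that were higher with differentiation (26.1% of all tested RNAs) and for 1 that was lower, mt-Rnr2 (29.1%).

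The methionine transfer RNA mt-Tm (3845 to 3913), which in mitochondria serves both initiation and elongation of translation, had the largest change. Its total stood at 113 and 142 CPM with differentiation, against 55.5 and 42.8 CPM in the controls (log2 change 1.38, SE 0.22, adjusted p = 0.00192). The call was lost without control 2 (1.20, adjusted p = 0.105), and it passed under each of the other 13 alternatives. The mt-Nd5 total stood at 213 and 305 CPM with differentiation, against 148 and 138 CPM in the controls (0.87, SE 0.19, adjusted p = 0.0139), and was called neither without control 1 (0.149) nor without control 2 (0.242). The mt-Nd2 total stood at 205 and 210 CPM with differentiation, against 152 and 124 CPM in the controls (0.59, SE 0.17, adjusted p = 0.0447), and its call was lost in 5 of 14 alternatives, among them without control 1 (0.157) and without control 2 (0.424).

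The other messengers had smaller changes that did not pass. The mt-Nd1 total stood at 157 and 211 CPM with differentiation, against 124 and 121 CPM in the controls (0.59, SE 0.19, adjusted p = 0.0657), and it passed in 5 of 14 alternatives: without differentiation 1 (4.11e-04), without pairs of Neat1 and Malat1 (0.0248), with the replicate block (0.0334), under column totals (0.0420) and under the default filter (0.0482). The mt-Co1 total stood at 479 and 534 CPM with differentiation, against 393 and 359 CPM in the controls (0.43, SE 0.15, adjusted p = 0.0890), and it passed without differentiation 1 (0.00864) and under column totals (0.0474). Totals of mt-Nd4 (0.33, adjusted p = 0.282) and mt-Cytb (0.28, adjusted p = 0.306) lay nearer to 0.

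Totals of the ribosomal RNAs had negative estimates. The mt-Rnr2 total stood at 194 and 211 CPM with differentiation, against 224 and 294 CPM in the controls (−0.35, SE 0.18, adjusted p = 0.222). The mt-Rnr1 total stood at 110 and 90.2 CPM with differentiation, against 108 and 128 CPM in the controls (−0.25, SE 0.19, adjusted p = 0.457), and its sign turned when pairs with Neat1 or Malat1 were left out (0.13). Per kilobase, contact totals averaged 1844 CPM for mt-Tm with differentiation, against 713 CPM in the controls. For the 6 messengers with a tested total they ran from 98.8 CPM (mt-Nd4) to 328 CPM (mt-Co1) with differentiation, against 78.9 to 244 CPM in the controls. Those of the ribosomal RNAs were 105 CPM (mt-Rnr1) and 128 CPM (mt-Rnr2) with differentiation, against 124 and 164 CPM in the controls.

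Separate fits of contacts with other RNAs alone gave smaller changes for most messengers. Over these between-RNA totals, mt-Tm (1.55, adjusted p = 1.49e-04) and mt-Nd5 (0.60, adjusted p = 0.0472) rose. The estimates for mt-Nd1 (0.30, adjusted p = 0.346), mt-Nd2 (0.48, adjusted p = 0.104), mt-Co1 (0.36, adjusted p = 0.188) and mt-Cytb (0.21, adjusted p = 0.534) did not pass. For each of the 5 messengers whose within-RNA pair rose, the within-RNA estimate was above the estimate for contacts with other RNAs. These 5 were picked by that rise, and the difference between the estimates was not tested. For mt-Nd4 the estimates were 0.58 within the RNA and 0.51 with other RNAs. Over all tested pairs of the table the median was 0.44 within an RNA and −0.05 between RNAs. Totals of the nuclear RNAs Neat1 and Malat1 fell. Without their pairs, 39 of 41 tested nuclear pairs of the messengers had positive estimates, with a median of 0.90.

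**Figure D2:**
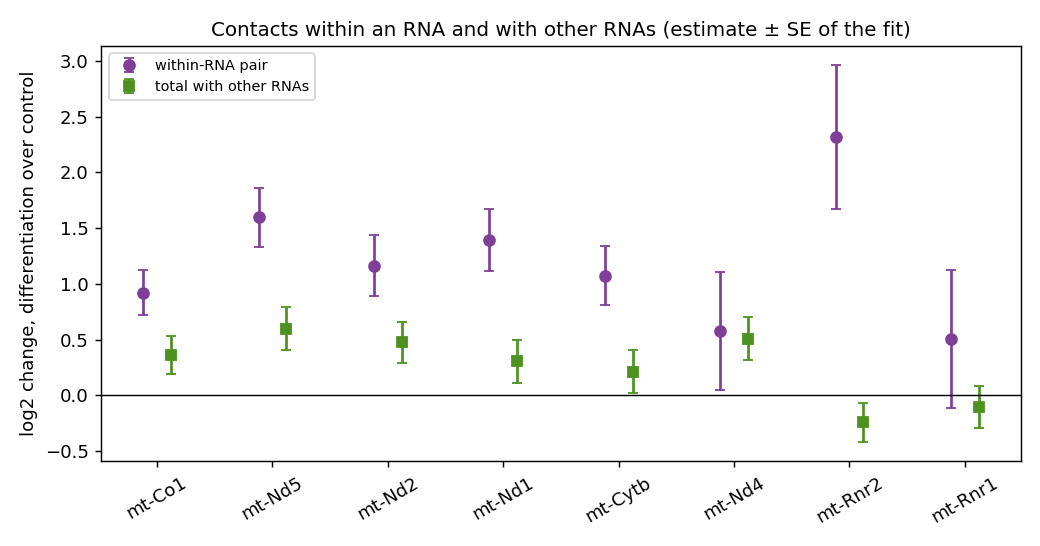
Log2 change of differentiation over control, with the SE of the fit, for the within-RNA pair (purple) and for the summed contacts with other RNAs (green) of 8 mitochondrially encoded RNAs. The purple point lies above the green one for all 8, and the green points of the ribosomal RNAs lie below 0.

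The make-up of each RNA's contacts moved with these changes. Within-RNA contacts were 140 of 261 and 340 of 565 counts of mt-Nd5 in the differentiation libraries, against 110 of 255 and 114 of 274 in the controls. Pooled over libraries, that was 58.1% with differentiation, against 42.3% in the controls. The share for mt-Nd1 was 56.0% with differentiation, against 38.7% in the controls. Shares for mt-Co1 (57.8% with differentiation, against 50.3% in the controls), mt-Nd2 (55.1% against 44.9%) and mt-Cytb (37.9% against 27.4%) differed in the same direction. For mt-Nd4 the share was 6.99% with differentiation, against 7.44% in the controls.

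As a class the mitochondrial messengers kept 50.2% of their counts within themselves with differentiation, against 39.2% in the controls. The ribosomal RNAs kept 5.26% with differentiation, against 1.98% in the controls. Nuclear-encoded respiratory subunits had 44.9% with differentiation, against 44.5% in the controls, and all RNAs 50.8% with differentiation, against 49.2% in the controls. These shares are descriptions of pooled counts and were not tested.

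**Figure D3:**
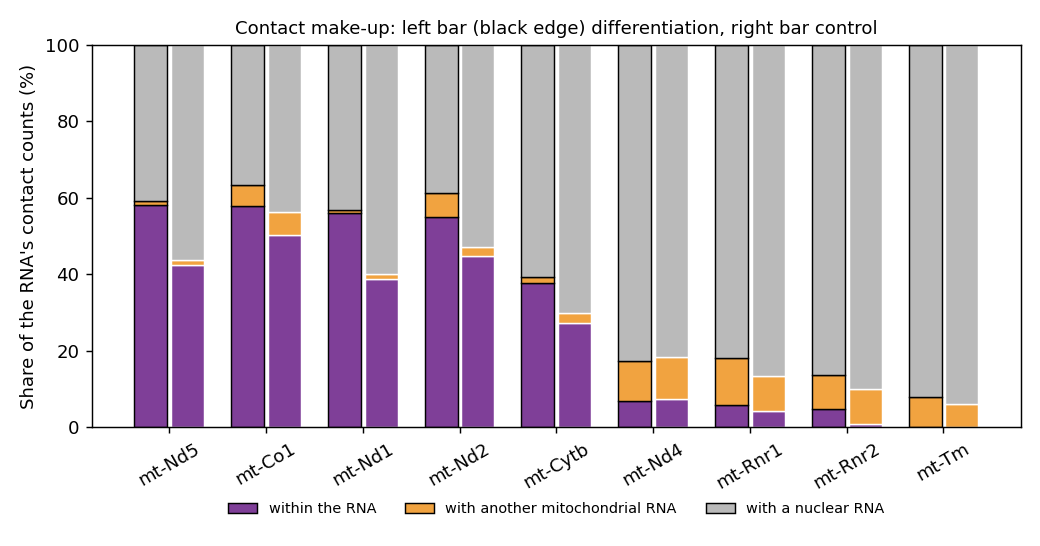
Share of each RNA's pooled contact counts that fell within the RNA (purple), with another mitochondrial RNA (orange) and with a nuclear RNA (grey), for differentiation (left bar, black edge) and control (right bar). The purple share is larger with differentiation for 7 of the 8 RNAs that have one, the exception being mt-Nd4, and mt-Tm has no within-RNA share.

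Mitochondrial RNAs met each other more often than the sizes of their totals would give. Of the between-RNA counts of the 10 RNAs, 4.99% lay with another mitochondrial RNA with differentiation, against 4.57% in the controls. Of the summed between-RNA totals of all nuclear RNAs, 0.182% lay with 1 of the 15 mitochondrial RNAs with differentiation, against 0.143% in the controls. No pair with a nuclear-encoded respiratory subunit was listed for the 10 RNAs, which had 144 nuclear partners among the 13318 RNAs of the table. An expected count was computed for each pair as the product of the between-RNA totals of its RNAs, divided by the summed totals of all RNAs. Observed over expected counts of pairs joining 2 mitochondrial RNAs, over all 15 names, were 57.5 and 47.1 in the differentiation libraries, against 65.8 and 59.5 in the controls. For pairs of a mitochondrial with a nuclear RNA the ratio was 0.916 and 0.908 with differentiation, against 0.914 and 0.920 in the controls. Both ratios rest on pairs listed in all 4 libraries, so pairs missing from any library do not enter them, and for RNAs with few counts that listing alone keeps pairs of high ratio.

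The 12 pairs joining 2 mitochondrial RNAs were observed between 28.0 and 3453 times their expected count with differentiation, against 41.1 to 2885 times in the controls, with medians of 134 and 148. The 246 pairs with a nuclear RNA spread over a wider range, from 0.421 to 5328 times with differentiation, against 0.336 to 8152 times in the controls, with medians of 11.5 and 9.55, so single nuclear pairs lay as high as the highest of the 12. The highest ratios belonged to the pairs of mt-Rnr2 with mt-Atp6 and mt-Co2, each the only listed pair of its messenger. Of the 12 pairs 7 could be tested and edgeR called 0, with 1 at an unadjusted p under 0.05 and 0 by DESeq2, against 1.3% higher and 2.25% lower among all between-RNA pairs.

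The most counted of these pairs joined mt-Co1 to mt-Rnr1, with 11 and 26 counts with differentiation, against 14 and 26 in the controls, although 4303 bases of the genome lie between the genes. Next came mt-Rnr2 with mt-Co1 (8 and 12 counts with differentiation, against 9 and 17 in the controls) and mt-Nd4 with mt-Rnr2 (5 and 14 counts with differentiation, against 11 and 15 in the controls). In each of these 3 pairs a ribosomal RNA met a messenger, and the groups overlapped. The genes of mt-Nd4 and mt-Rnr2 lie 7491 bases apart. The table listed no pair joining mt-Rnr1 to mt-Rnr2.

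Neighbouring genes gave further pairs. The pair of mt-Tm with mt-Nd2, whose genes directly adjoin, had 10 and 18 counts with differentiation, against 8 and 1 in the controls. Its groups did not overlap, but it did not pass (log2 change 2.12, SE 0.73, adjusted p = 0.103), and the ratio of summed scaled counts was 4.59 with a counting interval of 2.11 to 11.1. The pair of mt-Nd4 with mt-Nd4l had 6 and 19 counts with differentiation, against 15 and 3 in the controls (0.94, adjusted p = 0.496). These messengers are known to stay joined on 1 molecule and their genes overlap by 7 bases, so counts of this pair cannot be separated from contacts within 1 RNA.

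Grouped by kind, the 6 pairs with a ribosomal RNA summed to 31 and 61 counts with differentiation, against 54 and 75 in the controls. The 6 pairs without one summed to 28 and 54 counts with differentiation, against 28 and 17 in the controls. These sums are not scaled to library size, and the differentiation libraries held fewer counts. Of 4 tested pairs with a ribosomal RNA, 3 had positive estimates, with a median of 0.14. All 3 tested pairs without one had positive estimates, with a median of 0.97. The remaining pairs of mt-Co1 were those with mt-Nd5 (7 and 2 counts with differentiation, against 1 and 6 in the controls), mt-Nd2 (3 and 9, against 1 and 2), mt-Nd1 (1 and 3, against 2 and 4) and mt-Tm (1 and 3, against 1 and 1). Among the listed RNAs, mt-Co1 thus met 6 other mitochondrial RNAs. The pair of mt-Rnr2 with mt-Cytb had 3 and 7 counts with differentiation, against 11 and 5 in the controls (−0.15, adjusted p = 0.940).

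Nuclear partners numbered 144, of which 127 matched a gene symbol in the reference table. Most, 107, partnered with only 1 of the mitochondrial RNAs, 10 partnered with 5 or more and 4 with all 9 that had a nuclear pair. Those 4 were Gm42418, Gm26917, Gm23935 and the nuclear-speckle RNA Malat1. The reference table gives Gm42418 as a synonym of Rn18s-rs5, a sequence related to 18S ribosomal RNA, and does not annotate Gm26917 or Gm23935. Slc9a9, which encodes a sodium-proton exchanger, and the paraspeckle RNA Neat1 each partnered with 6.

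Of 246 pairs with a nuclear RNA, 84 had enough counts for a test, 3 rose and 3 fell, against 1.3% higher and 2.25% lower among all between-RNA pairs. The low-count filter lets a pair pass through either group, so the 84 do not stand for all 246. The estimates were positive in 65 of the 84, with a median of 0.64, against a median of −0.05 over all tested between-RNA pairs. The 162 pairs not tested summed to 286 and 392 counts with differentiation, against 390 and 498 in the controls. These sums are not scaled to library size, and the differentiation libraries held fewer counts, so they do not show a fall.

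The ribosomal RNAs had the wider set of nuclear partners. They met 101 nuclear RNAs and the messengers 61, of which 26 were shared. The 2 ribosomal RNAs shared 12 partners with each other. Of the messengers' 116 nuclear pairs 50 were tested, with 40 positive estimates and a median of 0.69, and of the ribosomal RNAs' 113 nuclear pairs 22 were tested, with 14 positive estimates and a median of 0.24. A few nuclear hubs took most of the messengers' contacts: the hubs Gm42418, Gm26917, Slc9a9, Malat1 and Neat1 held 63.0% of their between-RNA counts with differentiation, against 67.7% in the controls. For the ribosomal RNAs those hubs held 32.7% with differentiation, against 37.0% in the controls. For mt-Tm they held 15.5% with differentiation, against 35.4% in the controls, and for all RNAs 55.3% with differentiation, against 66.9% in the controls.

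Contacts with Gm42418 had positive estimates for all 9 mitochondrial RNAs tested, from 0.59 (mt-Co1) to 1.93 (mt-Tm), with a median of 0.90. None passed after adjustment, against 0.974% higher and 1.04% lower among 6261 tested pairs of Gm42418, whose median was 0.045. At an unadjusted p under 0.05 edgeR found 5 higher and 0 lower, and DESeq2 found 0 after adjustment. Summed over the 9 RNAs they made 236 and 468 counts with differentiation, against 243 and 335 in the controls, or 335 and 448 CPM with differentiation, against 205 and 240 CPM in the controls. That was 0.282% and 0.405% of the between-RNA counts of Gm42418 with differentiation, against 0.197% and 0.199% in the controls. The total of Gm42418 itself had an estimate of −0.26 (adjusted p = 0.255).

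Contacts with Slc9a9 were listed for the 6 messengers with nuclear pairs, and for neither ribosomal RNA nor mt-Tm. All 6 estimates were positive, from 0.23 (mt-Nd2) to 1.52 (mt-Nd5), with a median of 0.97, and 1 passed, against 0.526% higher and 0.61% lower among 4756 tested pairs of Slc9a9. The pair of Slc9a9 with mt-Nd5 had 31 and 43 counts with differentiation, against 18 and 20 in the controls, or 44.1 and 41.2 CPM against 15.2 and 14.4 CPM. It rose (1.52, SE 0.40, adjusted p = 0.0347), while the total of Slc9a9 had an estimate of −0.29 (adjusted p = 0.246). The call was lost in 6 of 12 alternatives, among them without control 1 (0.134) and without control 2 (0.216). The mitochondrial RNAs held 0.284% and 0.391% of the between-RNA counts of Slc9a9 with differentiation, against 0.181% in each control.

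Contacts with Gm26917 were less uniform, with 7 of 9 positive estimates, a median of 0.45 and a range of −0.23 (mt-Rnr2) to 2.40 (mt-Tm). Of these edgeR called 0, against 0.340% higher and 1.90% lower among 5587 tested pairs of Gm26917, whose median was −0.23. At an unadjusted p under 0.05 edgeR found 2 higher and 0 lower, and DESeq2 called 0. The total of Gm26917 fell (−0.50, adjusted p = 0.0296).

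Contacts with the nuclear RNAs Malat1 and Neat1 had mostly negative estimates, and so did these hubs as a whole. For Malat1, 7 of 8 tested estimates were negative, with a median of −0.70, against a median of −0.87 over 1487 tested pairs of Malat1. Of the 8, edgeR called 0, against 0% higher and 6.05% lower among those 1487. At an unadjusted p under 0.05 edgeR found 0 higher and 1 lower, and DESeq2 called 0. The total of Malat1 fell by 1.09 on the log2 scale (adjusted p = 0.00106). For Neat1 all 6 estimates were negative, with a median of −2.05, and 3 of the 6 fell, against 33.5% of the 801 between-RNA pairs of Neat1 with a test, whose median was −1.99. The total of Neat1 fell by 2.34 on the log2 scale (adjusted p = 3.07e-05).

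The largest of these pairs joined Neat1 to mt-Rnr2, with 6 and 6 counts with differentiation, against 39 and 60 in the controls, or 8.53 and 5.75 CPM against 32.9 and 43.0 CPM. Its log2 change was −2.43 (SE 0.49, adjusted p = 0.00725), which passed. The pair with mt-Rnr1 had 5 and 7 counts with differentiation, against 36 and 40 in the controls, and fell by 2.08 (SE 0.50, adjusted p = 0.0211). The pair with mt-Nd1 had 1 and 2 counts with differentiation, against 17 and 25 in the controls, and fell by 3.16 (SE 0.74, adjusted p = 0.0182). On so few counts its ratio of 0.105 had a counting interval of 0.0209 to 0.330. Differentiation lay below control without overlap in all 3 pairs. Without control 2 none of the 3 passed (adjusted p = 0.0572 for mt-Rnr2, 0.0829 for mt-Rnr1 and 0.0625 for mt-Nd1), and the pair with mt-Rnr1 did not without control 1 (0.0756) or differentiation 2 (0.0641). DESeq2 did not call the pair with mt-Nd1 (0.0627). The 6 mitochondrial RNAs together held 0.444% and 0.496% of the between-RNA counts of Neat1 with differentiation, against 0.484% and 0.489% in the controls, so these shares overlapped.

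**Figure D4:**
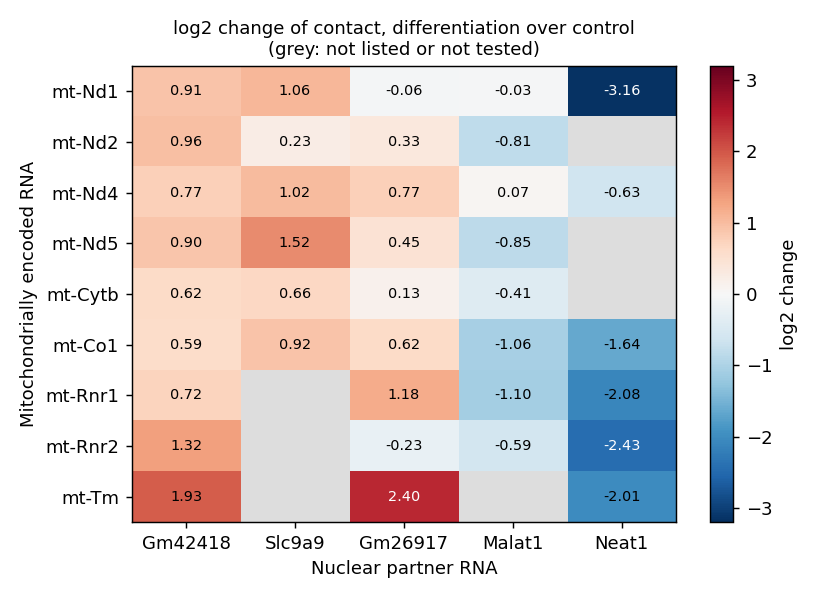
Log2 change of differentiation over control for contacts of 9 mitochondrially encoded RNAs (rows) with 5 nuclear hub RNAs (columns); red is higher with differentiation, blue lower, and grey cells were not listed or had too few counts. The Gm42418 and Slc9a9 columns are red throughout and the Neat1 column is blue throughout, with the deepest value, −3.16, for mt-Nd1.

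The nuclear partners of mt-Tm differed in kind from those of the messengers. It met 17 nuclear RNAs, 9 of them partners of another mitochondrial RNA too. Among the 17 were 4 RNAs annotated as small nuclear or small nucleolar (Snora3, Snord49b, Rnu3b3 and Gm26244) and the 4 genes that enclose them (Rpl27a, 2410006H16Rik, Tex14 and Rock1). Together these held 70.2% of the nuclear counts of mt-Tm with differentiation, against 47.6% in the controls. Snora3 and Rpl27a had identical counts in every library, as had Gm26244 and Rock1, so the same reads may enter this share more than once. The 4 small RNAs alone held 123 of 369 nuclear counts with differentiation, against 43 of 170 in the controls. Neat1 held 7 of the 369 with differentiation, against 43 of the 170 in the controls, so these shares move with the Neat1 pair. Without pairs of Neat1 and Malat1, the small RNAs held 123 of 356 counts with differentiation, against 43 of 122 in the controls. The messengers mt-Nd2, mt-Nd4, mt-Nd5 and mt-Cytb had no annotated small nuclear or nucleolar partner, mt-Nd1 had 1 and mt-Co1 had 2. Of the ribosomal RNAs, mt-Rnr1 had 0 and mt-Rnr2 had 4, with 26 counts with differentiation, against 37 in the controls. For mt-Tm these counts were 123 with differentiation, against 43 in the controls. They are not scaled to library size, and the differentiation libraries held fewer counts.

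Of 12 tested nuclear pairs of mt-Tm, 2 rose and 0 fell, against 1.3% higher and 2.25% lower among all between-RNA pairs. At an unadjusted p under 0.05 edgeR found 11 higher and 1 lower, and DESeq2 called 1 higher and 0 lower after adjustment. The pair with Tex14, a gene of germ cell intercellular bridges, had 20 and 24 counts with differentiation, against 2 and 3 in the controls, or 28.4 and 23.0 CPM against 1.69 and 2.15 CPM. It rose (log2 change 3.64, SE 0.63, adjusted p = 0.00241), with a ratio of 13.0 and a counting interval of 5.17 to 42.0, and it passed under all 12 alternatives tried. The pair with Rnu3b3, a gene of the U3 RNA that acts in the processing of nuclear ribosomal RNA, had 20 and 16 counts with differentiation, against 4 and 6 in the controls. It rose too (2.43, SE 0.61, adjusted p = 0.0256; ratio 5.32, counting interval 2.58 to 12.01), but was called neither without control 1 (0.0989), control 2 (0.0877) or differentiation 1 (0.0942) nor by DESeq2 (0.0684).

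Tex14 and Rnu3b3 are not independent partners. In the reference table Rnu3b3 (chromosome 11, 87448627 to 87448841) and 3 further U3 genes lie inside Tex14 (87405013 to 87555823), and reads over nested genes cannot be told apart here. The totals of the partners did not move with the pairs: that of Tex14 had an estimate of −0.06 (adjusted p = 0.857) and that of Rnu3b3 one of −0.02 (adjusted p = 0.963). The pair with mt-Tm held 0.411% and 0.369% of the Tex14 total with differentiation, against 0.0311% and 0.0372% in the controls.

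The other small RNA partners of mt-Tm had positive estimates that did not pass. The pair with the nucleolar RNA Snora3 had 6 and 33 counts with differentiation, against 10 and 6 in the controls (1.73, adjusted p = 0.124), and the pair with its host Rpl27a had the same counts in every library. The pair with Gm26244 had 6 and 20 counts with differentiation, against 1 and 6 in the controls (2.37, adjusted p = 0.0743), again with the same counts for the enclosing gene Rock1. Snord49b, which lies in 2410006H16Rik, had 9 and 13 counts with differentiation, against 6 and 4 in the controls (1.66, adjusted p = 0.148). For Snora3 and Rpl27a the scaled value of differentiation 1 (8.53 CPM) lay next to that of control 1 (8.43 CPM), and differentiation 2 alone stood high (31.6 CPM). The pair with Neat1 went the other way, with 4 and 3 counts with differentiation, against 23 and 20 in the controls (−2.01, adjusted p = 0.0770).

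**Figure D5:**
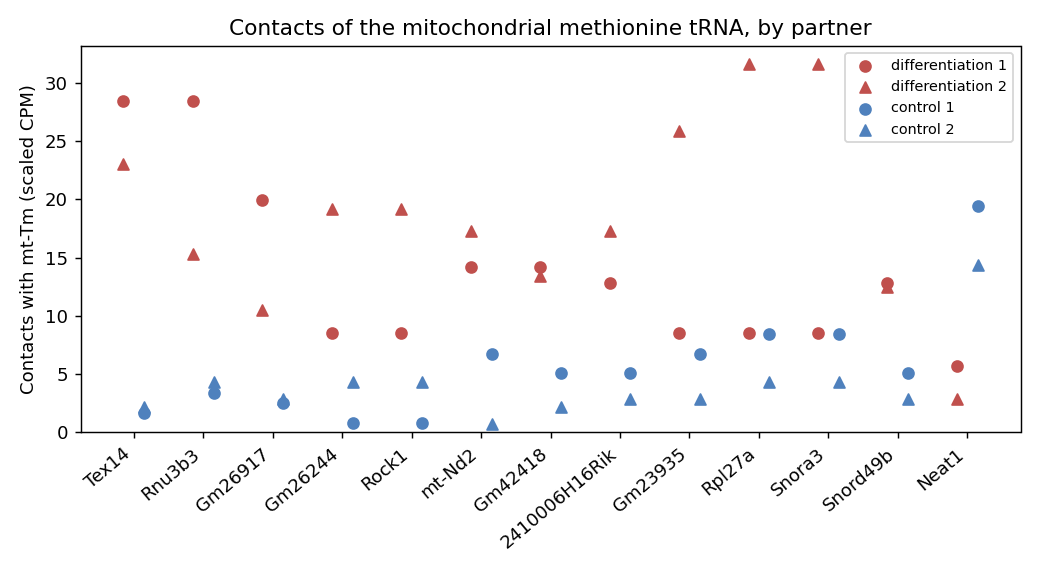
Scaled CPM of the contacts of the mitochondrial methionine transfer RNA mt-Tm with each partner that could be tested, ordered by log2 change; red marks are the 2 differentiation libraries and blue marks the 2 control libraries. Both differentiation libraries lie above both controls for every partner shown except Neat1, where they lie below. Only the pairs with Tex14 and Rnu3b3 passed the threshold. For 2 pairs of partners (Gm26244 with Rock1, Rpl27a with Snora3) the values are identical.

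The identity of mt-Atp6 is uncertain. This RNA (7927 to 8607), a subunit of ATP synthase, was listed in a single pair, with mt-Rnr2, with 3 and 1 counts with differentiation, against 2 and 8 in the controls, and could not be tested. The reference table gives mt-Atp6 as a synonym of the nuclear pseudogene Gm10925 (chromosome 1, 24613971 to 24614651), which has the same length of 681 bases. Gm10925 had 6 pairs and a total of 55 and 129 counts with differentiation, against 86 and 71 in the controls (0.44, adjusted p = 0.330). It had no listed pair with a mitochondrial RNA, and all 6 of its partners were partners of a mitochondrial RNA. Partners of mitochondrial RNAs include hubs with many pairs, such as Gm42418 with 8422. The overlap was not set against that of other RNAs. Reads of near-identical nuclear copies cannot be told from mitochondrial reads in this table, for mt-Atp6 and for any other member with such a copy.

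The 5 other mitochondrial RNAs had few counts. The totals of mt-Nd4l, a complex I messenger (0.53, adjusted p = 0.314), mt-Nd6, the messenger read from the opposite strand (0.40, adjusted p = 0.711), and the valine transfer RNA mt-Tv (0.52, adjusted p = 0.455) did not pass. mt-Co2 had 1 and 1 counts with differentiation, against 7 and 4 in the controls, all with mt-Rnr2, and the leucine transfer RNA mt-Tl1 had 1 and 4 counts with differentiation, against 2 and 1 in the controls.

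Partner profiles were set against those of 1252 nuclear RNAs with at least 10 partners, by the cosine of the square roots of summed counts. Other mitochondrial RNAs were left out of this comparison, so the nearest RNA was nuclear by construction. Among these nuclear RNAs, those nearest to the mitochondrial messengers were messengers too. The cosine was 0.936 between mt-Nd1 and Hs6st2, 0.935 between mt-Nd5 and Trak2 and 0.904 between mt-Nd4 and Hs6st2. It was 0.861 between mt-Nd2 and Jade1, 0.851 between mt-Cytb and Atn1 and 0.828 between mt-Co1 and Soat1. Both ribosomal RNAs were most like Rny3, a small cytoplasmic Y RNA, with a cosine of 0.677 for mt-Rnr1 and 0.632 for mt-Rnr2. The profile of mt-Tm was less like any of the RNAs compared, its nearest being Gm23991 (0.547) and the nucleolar RNAs Snord55 (0.544) and Snora68 (0.531). These likenesses are over the same 4 libraries and are dominated by hub partners, and they carry no test.

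Contact totals of nuclear genes that serve mitochondrial gene expression were also read. Among all 10993 tested RNAs 5.44% rose and 6.75% fell, so 0 calls in short lists is near those shares. Of 18 tested genes of mitochondrial transcription, RNA processing and decay, edgeR called 0 contact totals, with 2 higher and 1 lower at an unadjusted p under 0.05 and 0 by DESeq2, and the median was −0.04. The FASTK family genes Tbrg4 (0.32, adjusted p = 0.381) and Fastkd5 (−0.04, adjusted p = 0.964) had the highest levels among them. Of 19 tested translation factors and synthetases edgeR called 0, with 1 higher and 3 lower at an unadjusted p under 0.05 and 0 by DESeq2, and the median was −0.12. The synthetase genes Lars2 (0.20, adjusted p = 0.486) and Fars2 (−0.50, adjusted p = 0.0827) led these by level.

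Of 30 tested mitochondrial ribosomal protein genes 1 rose, against 5.44% of all tested RNAs. It was Mrpl54, at 133 and 162 CPM with differentiation, against 95.5 and 69.0 CPM in the controls (0.85, SE 0.21, adjusted p = 0.0215). None fell, with 0 lower also at an unadjusted p under 0.05 in edgeR and 0 by DESeq2. The median over the 30 was 0.39. Of 54 tested nuclear-encoded respiratory subunits 4 rose and 0 fell, against 5.44% higher and 6.75% lower among all tested RNAs. Estimates were positive in 45 of the 54, against 5490 of all 10993 tested RNAs. At an unadjusted p under 0.05 edgeR found 10 higher and 0 lower, and DESeq2 found 3 higher and 0 lower after adjustment. The median was 0.46, against a median near 0 (−7.1e-04) over all RNAs. Among the 4 were Cox5b (0.94, SE 0.20, adjusted p = 0.0105) and Cox7b2 (1.59, SE 0.35, adjusted p = 0.0127) of complex IV and Uqcr11 of complex III (1.32, SE 0.28, adjusted p = 0.0113). No gene of these 4 lists was in a listed pair with any of the 10 mitochondrial RNAs. Those had 144 nuclear partners among the 13318 RNAs of the table, so few would be awaited in these lists.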

How the data were processed

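Chimeric counts were measured in 4 RIC-seq libraries, 2 labelled differentiation and 2 control, grouped by their titles. The authors deposited 1 table of raw, unnormalized counts by RNA pair. Per the submitters' processing notes, STAR was a tool and GRCm38 the build. How chimeric, duplicate or overlapping-gene reads were handled is not given in the sources used here. Strand-specific libraries were made, per the labels' protocols. Names and coordinates (1-based) came from a RefSeq gene table of GRCm38.p6.

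From the deposited counts, all 56636 pairs and the contact totals of all 13318 RNAs were tested with edgeR 4.0.16 in R 4.3.3 (quasi-likelihood F test, two-sided, TMM scaling, filterByExpr with minimum count 5 and minimum total 10, Benjamini-Hochberg adjusted p under 0.05). A pair enters the totals of both its RNAs, so totals are not independent. edgeR's biological coefficient of variation came to 24.9% (pairs) and 18.7% (RNAs). Totals measure chimeric reads, which can move with RNA level as well as with contact. Wilson and exact intervals are at 95%. The test was checked on simulated counts with known changes.

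The members and gene lists were chosen with earlier results of these data known. Named pairs were all pairs of 2 mitochondrial RNAs, all pairs past the threshold and, per member, up to 5 of largest count. Likeness was read from the 3 nearest nuclear RNAs. From each gene list up to 3 called genes were named, or up to 2 by mean level where none was called. Genes beyond that rule (Gm10925 and the mt-Tm partners of lower count) were picked once values had been seen. Alternatives tried were column totals, RLE scaling, no filter, the default filter, a replicate block, DESeq2 1.42.0, an adjusted p under 0.1, leaving out each library, between-RNA pairs only, and leaving out pairs of Gm42418 and Gm26917. Leaving out pairs of Neat1 and Malat1, and keeping 1 of each nested set of pairs with identical counts, were added after seeing the data.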

Additional observations from a re-analysis of the deposited data

How the results depend on the processing

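Counts of calls depended on single libraries and on the tool. The 9 pairs of any kind that rose became 15 with the replicate block, 4 with DESeq2, 16 at an adjusted p under 0.1, and 4 to 17 when each library was left out in turn. The 6 within-RNA pairs that rose became 3 with DESeq2 and 1 to 6 with a library left out, the lowest without control 2. The 3 nuclear pairs that rose became 8 with the replicate block, 1 with DESeq2, 10 at an adjusted p under 0.1 and 2 to 10 with a library left out. The 3 pairs that fell, all with Neat1, became 0 without pairs of Neat1 and Malat1 by construction, and 0 to 5 with a library left out. The 3 contact totals that rose became 5 under column totals, 5 at an adjusted p under 0.1 and 0 to 5 with a library left out. The mt-Rnr1 total turned from −0.25 to 0.13 without pairs of Neat1 and Malat1. As differences in share, differentiation minus control, pairs of 2 mitochondrial RNAs moved from 0.00202 to 0.00454 percentage points over between-RNA pairs only, and pairs with nuclear RNAs from 0.0282 to 0.0655 percentage points over between-RNA pairs and to 0.00769 without Gm42418 and Gm26917. The between-RNA shares moved by construction, since numerators stay and denominators shrink, and leaving out Gm42418 and Gm26917 removes counts from both. For the other changes the cause was not tested. Same-numbered libraries correlated by 0.019 in their deviations over 31688 pairs and by 0.140 over 10993 RNAs, and with only 2 numbers the labels do not say that they pair libraries. With 1 library left out, the remaining library of its group borrowed the other group's spread. Pairs with few counts are limited by depth, and 162 of 246 nuclear pairs could not be tested.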
